A study of Mus musculus with 6 samples.

Results

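The Slc25 genes encode the mitochondrial carrier family, and their transcripts were compared between wild-type and Cables2-deficient mouse epiblast-like cells (EpiLCs). Members were the rows of the deposited gene table named Slc25a and a number, without pseudogene names. This rule gave 47 of the 49585 rows, of which 33 had enough counts to be tested. EpiLCs of the strain C57BL/6 were derived from embryonic stem cells kept with LIF-conditioned medium, 3 µM CHIR99021 and 1 µM PD0325901. All libraries, of both genotypes, came from day 2 after plating on fibronectin with activin A (20 ng/mL), bFGF (12 ng/mL) and KSR (1%). The groups were 3 libraries of genotype wild type (WT) and 3 of genotype Cables2-/- (KO). Cables2 encodes a protein that binds cyclin-dependent kinases. Nothing in the labels tells if libraries of 1 genotype were separate cultures or clones. Every p-value therefore reflects the scatter among these libraries, which could be technical.

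Carriers of this family sit mostly in the inner mitochondrial membrane, where they exchange nucleotides, phosphate, amino acids, carboxylates, cofactors and metals between the cytosol and the matrix. Best known are the ADP/ATP carriers, which export the ATP made in the matrix, and the aspartate/glutamate carriers, which let the malate-aspartate shuttle move reducing equivalents inward. A few relatives lie in other membranes, such as Slc25a17 in peroxisomes and Slc25a46 in the outer mitochondrial membrane.

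The libraries held 4234788 to 5206717 counts. Cables2 had 111 to 121 counts in the WT libraries and 4 to 11 in the KO libraries, so each library carried the Cables2 level of its label. Levels are in CPM, counts scaled to a common library size. The 6 EpiLC markers were all detected, with a summed level of 3735 to 3969 CPM in WT and 4055 to 4202 CPM in KO. Of these, Pou3f1 and Fgf5 rose (log2 fold change 0.88 ± 0.05 and 1.17 ± 0.14) and Dnmt3a fell (-0.17 ± 0.04). The 5 naive embryonic stem cell markers summed to 235 to 278 CPM in WT and 127 to 137 CPM in KO, and 4 of them fell. Sums of the marker lists of primitive endoderm, fibroblasts and trophoblast were at most 29.6 CPM in any library, their ranges overlapped between the genotypes, and the trophoblast gene Elf5 was at 0 in all libraries. The primitive endoderm marker Gata4 fell (-1.25 ± 0.45, edgeR adjusted p = 0.0393), with 13 to 18 counts in WT and 3 to 9 in KO. The share of mitochondrially encoded transcripts was 0.141% to 0.152% in WT libraries and 0.204% to 0.243% in KO libraries. The part of these marker levels and of this share in the results below was not tested. In bulk RNA, fewer cells of a type and less RNA per cell cannot be told apart.

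The family was expressed over a wide range, led by an ADP/ATP carrier. Levels between genes are compared here as CPM per kilobase of merged exons. The highest level was that of Slc25a5, the ADP/ATP carrier ANT2, with 217 ± 2.12 in WT and 225 ± 10.3 in KO (SD, n = 3 each; CPM per kilobase). Slc25a39, a glutathione carrier, followed with 88.9 ± 2.34 in WT and 85.6 ± 5.34 in KO on the same scale. The next members were the ADP/ATP carrier ANT1 gene Slc25a4 (71.6 ± 2.62 CPM per kilobase in WT), the phosphate carrier gene Slc25a3 (65.2 ± 4.07) and the citrate carrier gene Slc25a1 (62.4 ± 0.666). In the KO libraries the ranges of Slc25a4 (60.7 to 71.3 CPM per kilobase) and Slc25a3 (66.1 to 72.9) overlapped, as did Slc25a4 and Slc25a1 (62.5 to 66.0). In the WT libraries Slc25a3 (60.5 to 67.7) overlapped Slc25a1 (61.7 to 63.1), so the order of these 3 genes was not settled. The aspartate/glutamate carrier gene Slc25a13 (citrin) came sixth, at 45.9 ± 2.14 CPM per kilobase in WT. The median of the tested members over all libraries was 4.50 CPM per kilobase, and the lowest, Slc25a53, a carrier with no settled substrate, had 0.30. The same 6 genes led when the length of the longest protein-coding transcript was used instead, but Slc25a3 then moved from the fourth to the second place, with 233 CPM per kilobase.

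**Figure D1:**
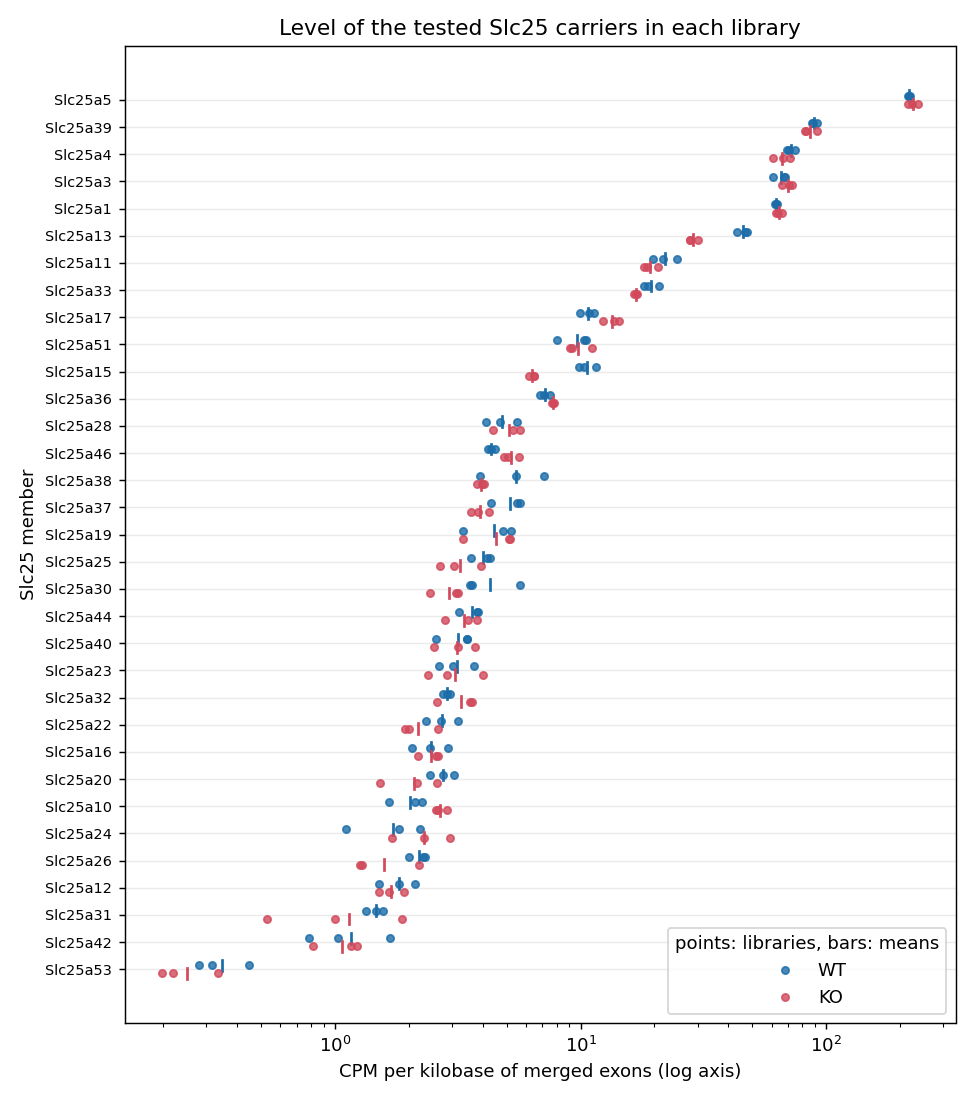
Level of the 33 tested Slc25 carriers in CPM per kilobase of merged exons (log axis), with 1 point per library and a bar at the mean of each genotype. Slc25a5 is highest at about 217 in WT, and the WT points lie above the KO points for Slc25a13 and Slc25a15.

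The 14 members that were not tested had at most 15 counts in any library. Slc25a2, a second ornithine carrier, Slc25a21, the oxodicarboxylate carrier, and Slc25a54 were listed at 0 in all libraries, and each of the remaining 11 was counted somewhere. The floor taken here, 3 counts, equals 0.569 to 0.716 CPM. At this depth no difference was detectable for these members, among them the glutamate carrier gene Slc25a18 on chromosome 6, whose WT counts were 2, 3 and 0 and whose KO counts were 0, 1 and 0. The relatives of the uncoupling proteins Slc25a14 (UCP5) and Slc25a27 (UCP4) were also in this group.

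Few members of the family differed between the genotypes. By edgeR's quasi-likelihood test, with p-values adjusted over all 11594 tested genes, 1 member rose and 4 fell. These 5 of 33 members are 15.2%, against 17.3% of all tested genes called in either direction (8.13% rose and 9.13% fell). The median log2 fold change (KO minus WT) was -0.10 over the tested members and 0.0087 over all tested genes. In 9 of 33 members the KO libraries lay wholly on 1 side of the WT libraries, against 31.6% of all tested genes, and 9 of 33 had an unadjusted p under 0.05, against 29.4%. The authors' deposited table calls 3 members at the same threshold, Slc25a13, Slc25a15 and Slc25a37. The standard error of the log2 fold change ran from 0.05 for Slc25a5 to 0.43 for Slc25a53, so for members of low level only large changes could pass the test.

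The summed level of the family was lower in KO, and the difference lay with the members on chromosomes 6 and 8. The family had a summed WT mean of 2067 ± 25.1 and a KO mean of 1979 ± 10.7 CPM (SD, n = 3 each), and the libraries did not overlap (2047 to 2095 against 1972 to 1991 CPM). Its 6 members on chromosomes 6 and 8 summed to 421 ± 6.51 CPM in WT and 314 ± 6.29 CPM in KO. The other 41 members summed to 1647 ± 18.8 CPM in WT and 1665 ± 17.0 CPM in KO, with overlapping libraries. These sums are descriptions and carry no test.

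Genes of chromosomes 6 and 8 were lower in KO as whole chromosomes, which sets the background for the members there. The median log2 fold change was -0.25 over the 537 tested genes of chromosome 6 and -0.21 over the 647 of chromosome 8. On the 17 other autosomes and X the medians lay between -0.013 and 0.053. Chromosome 6 held 4.89% to 4.98% of the counts in WT libraries and 4.06% to 4.11% in KO, and chromosome 8 held 5.70% to 5.80% and 5.05% to 5.11%. Of the tested genes, 35.8% of chromosome 6 fell and 1.12% rose, together 36.9%, and of chromosome 8 34.5% fell and 2.01% rose, together 36.5%. On the other chromosomes 6.19% fell and 8.88% rose. This difference separates the same libraries as the genotype, so the effects of the 2 cannot be told apart. Whether the cells differed in the number of copies of these chromosomes was not tested. Of the 5 tested members on these chromosomes 2 fell and none rose in edgeR (unadjusted p under 0.05: 3 lower and 0 higher). At an unadjusted p under 0.05, 51.8% of the genes of chromosome 6 and 51% of those of chromosome 8 passed. The libraries did not overlap in 2 of these 5 members, against 50.5% of the genes of chromosome 6 and 50.2% of chromosome 8. In DESeq2 the same 2 members fell and none rose. On the other chromosomes, 1 of 28 members rose and 2 fell, together 10.7%, against 15.1% of all tested genes there, 6 of 28 had an unadjusted p under 0.05 (26.9% of all), the libraries of 7 did not overlap (29.5% of all), and their median log2 fold change was -0.012, with 0.028 for all tested genes there.

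**Figure D2:**
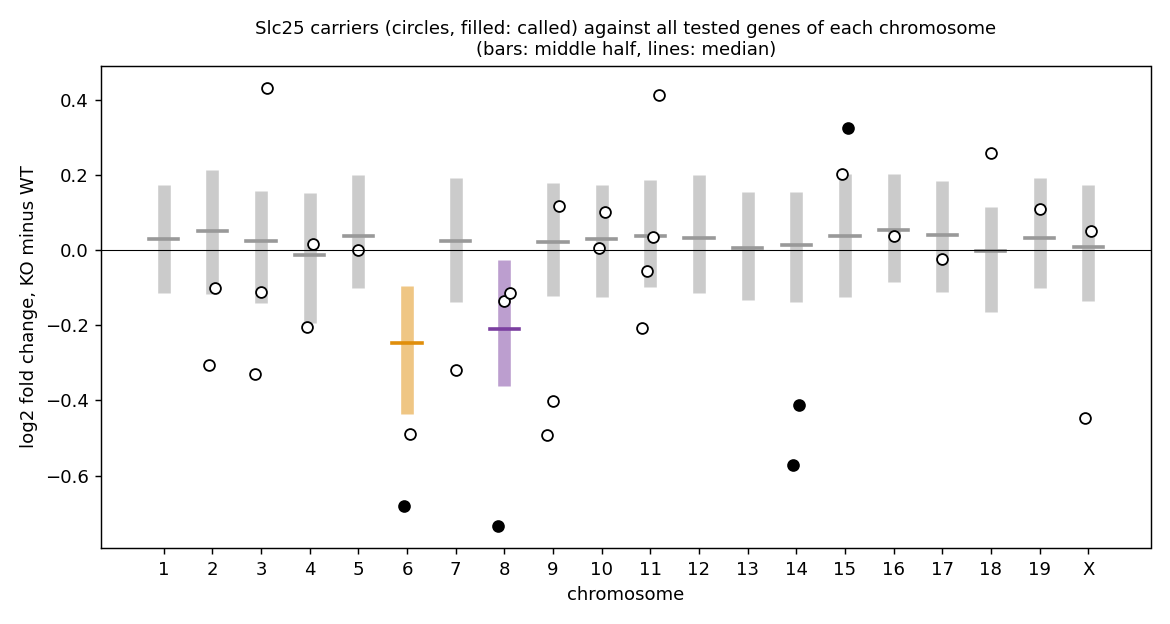
Log2 fold change (KO minus WT) of the tested Slc25 carriers by chromosome, as circles filled where the adjusted p was under 0.05, over the range between quartiles (bars) and median (lines) of all tested genes of each chromosome. Chromosomes 6 and 8 have medians of -0.25 and -0.21, and Slc25a13 and Slc25a15 lie below the bars of their chromosomes.

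Slc25a13 encodes citrin, one of a pair of calcium-regulated aspartate/glutamate carriers of the malate-aspartate shuttle. The gene (ENSMUSG00000015112.15) lies on the minus strand of chromosome 6, from 6041218 to 6217173 in mm10. It had WT counts of 863, 794 and 693 and KO counts of 544, 603 and 469, or 181, 177 and 165 CPM against 106, 114 and 106 CPM. All KO libraries were below all WT libraries. The WT mean was 174 ± 8.12 CPM and the KO mean 109 ± 4.90 CPM (SD, n = 3 each), which is 62.3%. The log2 fold change was -0.68 ± 0.07 (SE; edgeR adjusted p = 8.9e-14). Its signed fold in the authors' deposited table is -1.61. The log2 fold change lay 0.43 below the median of chromosome 6, where 45 of 537 tested genes had a log2 fold change as low or lower. A scaling and fit within chromosome 6 alone was an alternative chosen after seeing the data. It gave Slc25a13 a log2 fold change of -0.41 ± 0.07 (edgeR adjusted p = 2.76e-07 over the genes of that chromosome). This scaling takes out about the median shift of the chromosome, so a value near the 0.43 above was fixed in advance. Whether the fall of Slc25a13 is separate from that of its chromosome was not tested.

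Its paralog Slc25a12 (aralar) is the aspartate/glutamate carrier of brain and muscle, and it was far lower in these cells. Slc25a12 had WT counts of 53, 60 and 65 and KO counts of 57, 64 and 62, and it did not pass the test (log2 fold change -0.10 ± 0.19, edgeR adjusted p = 0.774). Per kilobase, Slc25a13 made up 95.4% to 96.9% of the pair in WT and 93.6% to 94.9% in KO. The ranges did not overlap, and citrin remained the main form in all 6 libraries.

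Slc25a15 encodes the ornithine carrier ORC1, which brings ornithine into the matrix for the urea cycle and for ornithine aminotransferase. The gene (ENSMUSG00000031482.9) lies on the minus strand of chromosome 8, from 22375551 to 22398597. It had WT counts of 265, 261 and 274 and KO counts of 178, 192 and 161, or 55.5, 58.3 and 65.4 CPM against 34.6, 36.4 and 36.4 CPM. The groups did not overlap, and the KO mean of 35.8 ± 1.03 CPM was 60.0% of the WT mean of 59.7 ± 5.08 CPM (SD, n = 3 each). The log2 fold change was -0.73 ± 0.10 (SE; edgeR adjusted p = 3.78e-08), the most negative of the tested members, and its signed fold in the authors' deposited table is -1.67. Of the 647 tested genes of chromosome 8, 21 had a log2 fold change as low or lower. Within chromosome 8 alone its log2 fold change was -0.53 ± 0.10 (edgeR adjusted p = 3.88e-05 over the genes of that chromosome), with the same limit as for Slc25a13. The calls of Slc25a13 and Slc25a15 held whichever of the 6 libraries was left out, and in DESeq2.

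The other members on these chromosomes did not pass the test. Slc25a4, on chromosome 8 (46206797 to 46211284), had WT counts of 781, 785 and 697 and KO counts of 862, 752 and 691, with overlapping levels of 164 to 175 CPM and 143 to 168 CPM. Its log2 fold change was -0.11 ± 0.06 (edgeR adjusted p = 0.222) over all chromosomes and 0.09 ± 0.06 with scaling within chromosome 8 (adjusted p = 0.316), so its sign depended on the scaling. Slc25a26 on chromosome 6, which carries the methyl donor S-adenosylmethionine, had WT counts of 46, 49 and 47 and KO counts of 32, 32 and 47. KO library 06 lay within the WT range, and the log2 fold change of -0.49 ± 0.23 did not pass (edgeR adjusted p = 0.135). Without that library it was -0.78 (adjusted p = 0.0320), and within chromosome 6 it was -0.22 ± 0.23 (adjusted p = 0.563). Exons of Slc25a26 share 144 bases with Lrig1 on the opposite strand, and whether the counts used strand is not given in the sources used here. Slc25a42 on chromosome 8, a coenzyme A carrier, had WT counts of 48, 21 and 26 and KO counts of 25, 39 and 31 (log2 fold change -0.13 ± 0.27, edgeR adjusted p = 0.792). Its sign turned without WT library 01 (0.24) or KO library 04 (0.03) and within chromosome 8 (0.07).

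**Figure D3:**
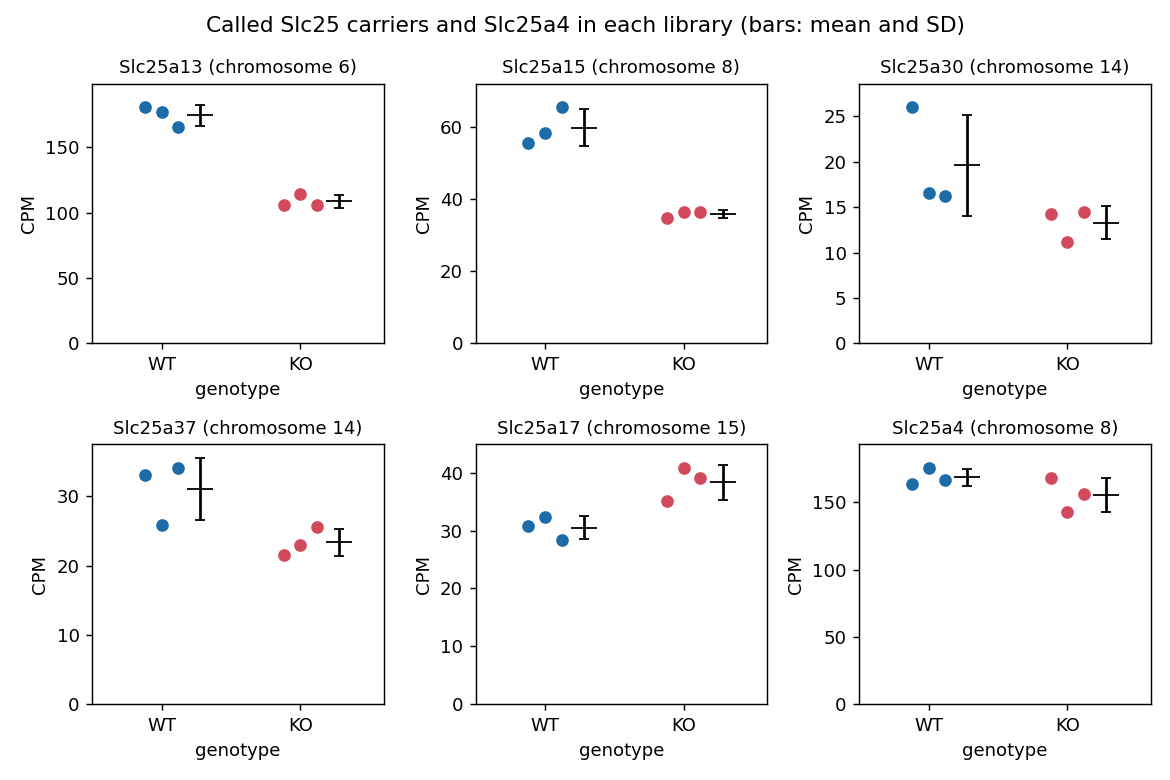
CPM of the 5 called Slc25 carriers and of Slc25a4 in each library (points), with the mean and SD of each genotype (n = 3). The WT and KO libraries do not overlap in the called members, whereas those of Slc25a4 do, at 164 to 175 and 143 to 168 CPM.

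Outside chromosomes 6 and 8, Slc25a30 and Slc25a37 fell and Slc25a17 rose, all by less. Slc25a30 encodes KMCP1, a relative of the uncoupling proteins first described in kidney, and lies on chromosome 14 (75761999 to 75787037). It had WT counts of 124, 74 and 68 and KO counts of 73, 59 and 64, or 26.0, 16.5 and 16.2 CPM against 14.2, 11.2 and 14.5 CPM. WT library 01 stood well above the other WT libraries. The log2 fold change was -0.57 ± 0.18 (edgeR adjusted p = 0.0146), and it was -0.31 without that library (adjusted p = 0.350) and -0.46 without KO library 05 (adjusted p = 0.108). Its DESeq2 adjusted p was 0.0882.

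Slc25a37 encodes mitoferrin 1, the iron importer that feeds haem synthesis in red cell precursors, and lies on chromosome 14 too (69241848 to 69285112). It had WT counts of 158, 116 and 143 and KO counts of 111, 121 and 113, or 33.1, 25.9 and 34.1 CPM against 21.6, 23.0 and 25.5 CPM. The lowest WT library and the highest KO library nearly met. The log2 fold change was -0.41 ± 0.14 (edgeR adjusted p = 0.0242). The call ended without WT library 01 (-0.36, adjusted p = 0.106), WT library 03 (-0.34, 0.125), KO library 04 (-0.36, 0.110) or KO library 05 (-0.40, 0.0681), and in DESeq2 (adjusted p = 0.0921). Its paralog Slc25a28, mitoferrin 2, had a WT mean of 17.97 ± 2.64 and a KO mean of 19.2 ± 2.44 CPM (SD, n = 3 each) and did not pass (log2 fold change 0.11 ± 0.16, edgeR adjusted p = 0.712). Per kilobase, the ratio of mitoferrin 2 to mitoferrin 1 was 0.941 ± 0.174 in WT and 1.33 ± 0.256 in KO, with overlapping libraries.

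Slc25a17, a peroxisomal carrier of coenzyme A and related cofactors on chromosome 15 (81318921 to 81360765), was the member that rose. It had WT counts of 147, 145 and 119 and KO counts of 180, 215 and 173, or 30.8, 32.4 and 28.4 CPM against 35.0, 40.8 and 39.1 CPM. The groups did not overlap, and the log2 fold change was 0.33 ± 0.12 (edgeR adjusted p = 0.0472). This call stood close to the threshold and ended in 5 of the 6 fits that left out 1 library, every one but that without KO library 04 (log2 fold change 0.27 to 0.36, adjusted p = 0.0586 to 0.179). It also ended in DESeq2 (adjusted p = 0.143) and with chromosomes 6 and 8 left out (adjusted p = 0.0782). The call was lost too with no low-count filter and when 3 libraries had to reach 1 CPM.

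**Figure D4:**
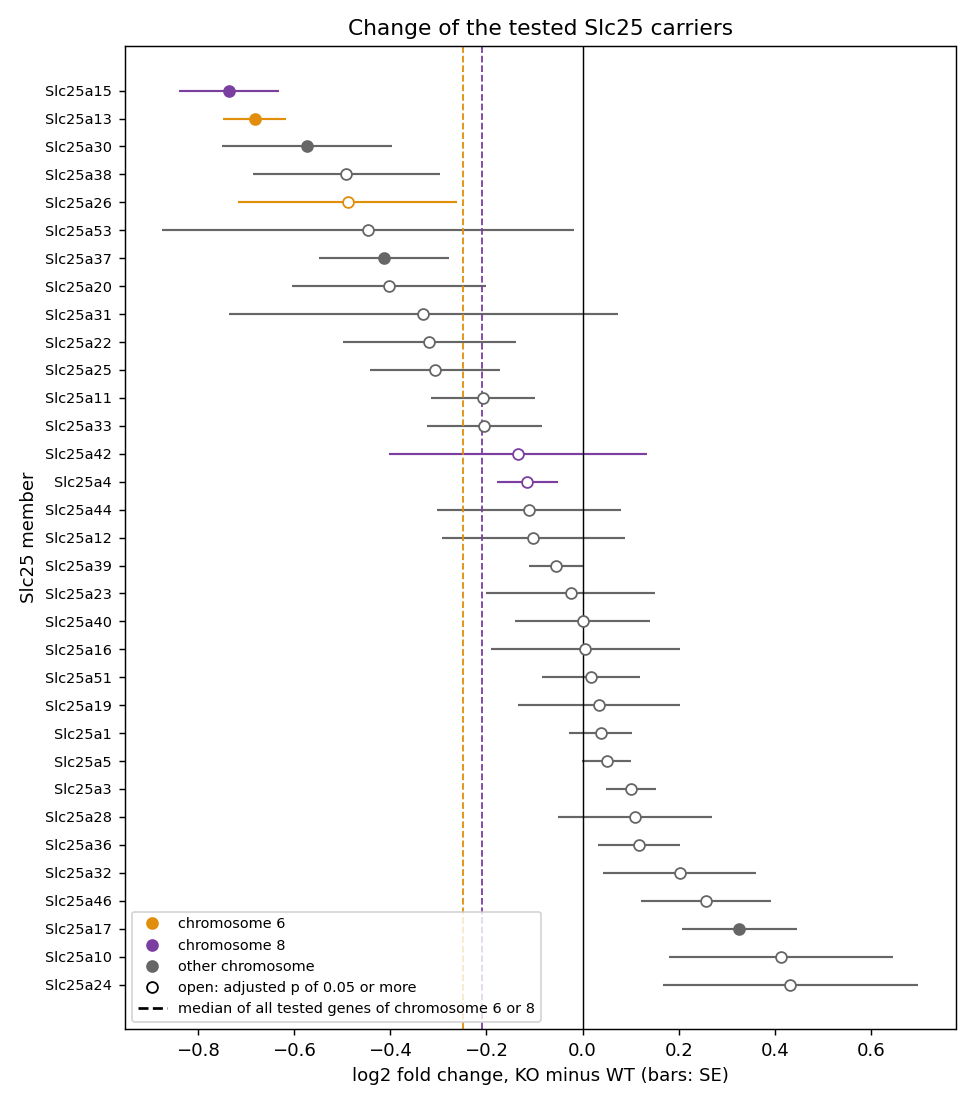
Log2 fold change (KO minus WT) of the 33 tested Slc25 carriers with its SE, filled where the edgeR adjusted p was under 0.05 and coloured by chromosome 6, chromosome 8 or another. Dashed lines mark the medians of all tested genes of chromosomes 6 (-0.25) and 8 (-0.21), and Slc25a15 and Slc25a13 lie lowest.

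The upstream sequences of the called members, except Slc25a37, are shown because these are the genes of the family whose levels moved. Each is the 250 bases before the start site nearest to the 5′ end in the table, 5′ to 3′ on the gene's strand, from RefSeq (GRCm38.p6). Capitals mark matches, on either strand, to the CCAAT box (CCAAT), the E-box (CACGTG), the GC box (GGGCGG), the ETS core (CCGGAAG), the NRF1-type motif (TGCGCA) or the TATA box (TATAAA). No match overlaps another in these windows. The regions, all on the minus strand, are chr6:6217174-6217423 for Slc25a13, chr8:22398622-22398871 for Slc25a15, chr14:75787038-75787287 for Slc25a30 and chr15:81360766-81361015 for Slc25a17.
Slc25a13: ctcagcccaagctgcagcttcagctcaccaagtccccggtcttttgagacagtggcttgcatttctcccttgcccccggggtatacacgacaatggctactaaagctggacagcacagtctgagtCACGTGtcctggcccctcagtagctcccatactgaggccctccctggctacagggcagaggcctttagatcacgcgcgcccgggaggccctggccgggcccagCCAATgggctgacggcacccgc
Slc25a15: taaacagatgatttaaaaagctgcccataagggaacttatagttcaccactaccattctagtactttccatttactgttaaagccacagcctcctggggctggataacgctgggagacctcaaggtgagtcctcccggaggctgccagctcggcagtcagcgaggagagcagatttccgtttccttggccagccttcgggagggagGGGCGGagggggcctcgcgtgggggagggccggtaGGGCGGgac
Slc25a30: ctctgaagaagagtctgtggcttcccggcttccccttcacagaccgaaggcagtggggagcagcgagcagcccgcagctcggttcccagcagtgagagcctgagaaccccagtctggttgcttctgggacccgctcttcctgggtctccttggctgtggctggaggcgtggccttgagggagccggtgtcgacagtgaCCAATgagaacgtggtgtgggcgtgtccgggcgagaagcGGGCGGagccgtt
Slc25a17: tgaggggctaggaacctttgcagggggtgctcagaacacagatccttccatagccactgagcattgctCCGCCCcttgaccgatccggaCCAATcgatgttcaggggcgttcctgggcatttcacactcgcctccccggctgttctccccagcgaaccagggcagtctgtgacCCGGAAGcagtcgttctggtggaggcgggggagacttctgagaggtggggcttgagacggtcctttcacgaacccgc
Those shown of the members that fell share no single motif of these. Slc25a13 has a CCAAT box and an E-box, Slc25a15 has 2 GC boxes, and Slc25a30 has a CCAAT box and a GC box. Slc25a17, which rose, has a CCAAT box, a GC box and an ETS core. An upstream window was at hand for 36 of the 47 members. Each member counts with 1 window, whereas the set of all windows was not reduced to 1 per gene. The shares below are therefore not on the same unit. A GC box was in 24 of these 36 (66.7%) and in 32.7% of all 32851 RefSeq windows of the same length. A CCAAT box was in 16 (44.4%) and in 33.8% of all windows, and an E-box in 6 (16.7%) and in 6.02%. A TATA box was in 1 (2.78%) and in 12.4% of all windows. The NRF1-type motif was in 4 (11.1%) and in 6.43%, and the ETS core in 6 (16.7%) and in 6.91%. A match is a description of letters and not a bound site. Slc25a37, which also fell, is not shown because no upstream window was at hand for it.

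By role, the carriers of nucleotides and phosphate, among them the ADP/ATP carriers, had 9 tested members, of which 0 passed edgeR's test or DESeq2 (1 at an unadjusted p under 0.05 in edgeR, Slc25a25). Among all tested genes 17.3% were called, and a group of this size is too small to be read against that share. Slc25a5 had WT counts of 1715, 1609 and 1481 and KO counts of 1884, 2045 and 1568, or 353 to 359 CPM against 355 to 388 CPM, with a log2 fold change of 0.05 ± 0.05 (edgeR adjusted p = 0.560). Slc25a3 had WT counts of 1603, 1682 and 1568 and KO counts of 2079, 1933 and 1737, and a log2 fold change of 0.10 ± 0.05 (edgeR adjusted p = 0.178). Per kilobase, Slc25a5 made up 74.2% to 75.5% of the 3 ADP/ATP carriers in WT and 75.5% to 79.0% in KO. Slc25a31, the germ line form ANT4, made up 0.188% to 0.628% over all libraries. Slc25a4 and Slc25a5 are close in sequence, and how the authors counted reads that map to several genes is not given, so reads may have been split between them. The pseudogene row Slc25a5-ps was listed at 0. Among the calcium-regulated ATP-Mg/phosphate carriers, Slc25a25 had WT counts of 160, 146 and 118 and KO counts of 123, 163 and 93 (log2 fold change -0.31 ± 0.14, edgeR adjusted p = 0.109), and without KO library 05 it was -0.48 (adjusted p = 0.0217). Slc25a23 and Slc25a24 had log2 fold changes of -0.02 ± 0.18 and 0.43 ± 0.26 (edgeR adjusted p = 0.952 and 0.279), and the sign of Slc25a23 turned without WT library 03 or KO library 04 or 05. The pyrimidine nucleotide carrier Slc25a33 had 36.4 ± 2.58 CPM in WT and 31.7 ± 0.494 CPM in KO, and Slc25a36 had 68.5 ± 3.23 and 74.3 ± 0.842 CPM (SD, n = 3 each). Neither passed the test. Their ratio per kilobase ran from 2.42 to 3.04 in WT libraries and from 2.11 to 2.22 in KO libraries, without overlap. Several paralog ratios were taken, most of them with overlap, and none was tested. Among all tested genes taken singly, the libraries did not overlap in 31.6%.

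Among the 6 tested amino acid carriers, 2 fell and 0 rose, and these were Slc25a13 and Slc25a15 on chromosomes 6 and 8 (no other passed in DESeq2). Of all tested genes 9.13% fell, and on chromosomes 6 and 8, where both lie, 35.8% and 34.5%. A log2 fold change below 0 was found in 5634 of all 11594 tested genes. On chromosome 6 it was found in 456 of 537, and on chromosome 8 in 507 of 647. All 6 amino acid carriers had a log2 fold change below 0, with a median of -0.40 (0.0087 over all tested genes). That of Slc25a12 was 0.016 without WT library 03. The 6 carriers were too few to set against these shares. The carriers include the glutamate carrier gene Slc25a22 (WT counts of 67, 85 and 68, KO counts of 81, 61 and 53, -0.32 ± 0.18, edgeR adjusted p = 0.231). The glycine carrier gene Slc25a38, named here after its value was seen, had WT counts of 93, 67 and 45 and KO counts of 56, 55 and 49 (-0.49 ± 0.19, edgeR adjusted p = 0.0685). Its WT libraries differed by more than the groups did, and without WT library 03 it passed the test.

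Of the 4 tested carriers of carboxylates and acyl groups, 0 were called in edgeR (1 at an unadjusted p under 0.05, Slc25a20) or in DESeq2. With 17.3% of all tested genes called, 4 genes are too few to set against that share. Slc25a1, which exports citrate for the cytosolic acetyl-CoA used in lipid synthesis, had WT counts of 646, 598 and 572 and KO counts of 710, 713 and 632. With a WT mean of 135 ± 1.44 and a KO mean of 139 ± 3.83 CPM (SD, n = 3 each), its log2 fold change was 0.04 ± 0.07 (edgeR adjusted p = 0.756). The dicarboxylate carrier Slc25a10 had a log2 fold change of 0.41 ± 0.23 and the oxoglutarate/malate carrier Slc25a11 one of -0.21 ± 0.11 (edgeR adjusted p = 0.233 and 0.194). The ratio of Slc25a10 to Slc25a11 per kilobase ran from 0.0837 to 0.0981 in WT libraries and from 0.127 to 0.153 in KO libraries, without overlap. Neither gene passed, and the ratio, one of several taken, was not tested. Exons of Slc25a11 share 189 bases with Rnf167 on the opposite strand, so part of its counts may be shared.

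Of the 7 tested carriers of cofactors and vitamins, 1 was called, Slc25a17, or 14.3%, against 17.3% of all tested genes. Of the 4 carriers of iron and glutathione, 1 fell, Slc25a37, and 0 rose. Both calls ended in most of the fits without 1 library, as given above. Slc25a39 had WT counts of 1205, 1075 and 1018 and KO counts of 1163, 1332 and 1010, with overlapping levels of 240 to 252 CPM and 226 to 253 CPM (log2 fold change -0.06 ± 0.06, edgeR adjusted p = 0.565). Its paralog Slc25a40 had a WT mean of 26.5 ± 4.13 and a KO mean of 26.4 ± 5.04 CPM (SD, n = 3 each), and Slc25a39 was 24.6 to 34.0 times higher per kilobase over the 6 libraries. The log2 fold change of Slc25a40 was 0.0006 ± 0.14 (edgeR adjusted p = 0.998), and its sign changed with the scaling. The 2 tested members with no settled substrate or an outer membrane site, Slc25a46 (0.26 ± 0.14, edgeR adjusted p = 0.196) and Slc25a53 (-0.45 ± 0.43, adjusted p = 0.536), did not pass.

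Family members that carry other names were read from a separate list. Ucp2, an uncoupling protein of stem cells and immune cells, had WT counts of 505, 477 and 456 and KO counts of 488, 518 and 306. It fell, with a log2 fold change of -0.28 ± 0.08 (edgeR adjusted p = 0.00881), but KO library 06 stood below the others, and without it the value was -0.15 (adjusted p = 0.246). The DESeq2 adjusted p of Ucp2 was 0.0642. The outer membrane relatives Mtch1 (0.08 ± 0.09) and Mtch2 (-0.10 ± 0.08) did not pass in log2 fold change (edgeR adjusted p = 0.614 and 0.470). Ucp1 and Ucp3 had at most 3 counts in any library.

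Genes of mitochondrial protein import, among them the machinery that inserts carriers into the inner membrane, were read as another list. The list covers the outer membrane translocase, small Tim chaperones and TIM22 complex. It also holds Timm23, Timm17a, Timm17b and Timm50, which belong to the TIM23 complex instead. Of its 19 tested genes 0 rose and 1 fell, or 5.26%, against 17.3% of all tested genes. A list of 19 genes is too small to be read against that share. The one that fell was Tomm20, a receptor of the outer membrane translocase on chromosome 8 (log2 fold change -0.16 ± 0.06, edgeR adjusted p = 0.0349). On chromosome 8, 34.5% of the tested genes fell and the median was -0.21, so Tomm20 lay above that median. The call of Tomm20 ended when WT library 02 or 03 was left out, or KO 05 or 06 (adjusted p up to 0.153), in DESeq2, and under library size alone or upper-quartile scaling. The median of the list was 0.06. Of 17 tested transporters of the inner membrane outside the family, 1 fell and 0 rose, or 5.88%, against 17.3% of all tested genes called. It was the sodium/calcium/lithium exchanger gene Slc8b1 (-0.46 ± 0.17, edgeR adjusted p = 0.0408). Slc8b1 passed in only 1 of the 6 fits without 1 library, that without WT library 02. Of 9 outer membrane pore and permeability genes, 1 fell and 0 rose, or 11.1%, against 17.3% of all tested genes called. It was the hexokinase gene Hk2 on chromosome 6 (-0.63 ± 0.05). Its WT mean was 461 ± 15.7 and its KO mean 298 ± 13.0 CPM (SD, n = 3 each). On chromosome 6, 35.8% of the tested genes fell, and the median was -0.25. Of 14 genes of mitochondrial iron use, 0 rose and 0 fell in edgeR (0 at an unadjusted p under 0.05, and 0 in DESeq2), with a median of 0.05.

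Enzymes that work beside the aspartate/glutamate, oxoglutarate and citrate carriers held several called genes. The list holds genes of the malate-aspartate and citrate shuttles and other mitochondrial enzymes, such as Gpd2, Glud1, Idh2 and Ogdh. Of its 15 tested genes 7 fell, Gpd2, Glud1 and Idh2 among them, and 1 rose, or 53.3%. The median log2 fold change was -0.14, against 17.3% called and a median of 0.0087 over all tested genes. The list was chosen with earlier results of these data known, and no test of the list was made. Gpd2, the mitochondrial glycerol-3-phosphate dehydrogenase of the other main redox shuttle, had WT counts of 1091, 1053 and 932 and KO counts of 870, 942 and 762 (-0.40 ± 0.06, edgeR adjusted p = 8.71e-08). The aspartate aminotransferase genes Got1 (-0.30 ± 0.06, adjusted p = 6.64e-05) and Got2 on chromosome 8 (-0.20 ± 0.05, adjusted p = 0.00211) fell in edgeR's test, as did the glutamate dehydrogenase gene Glud1 (-0.20 ± 0.05, adjusted p = 0.000649). In each of these 4 genes the KO libraries lay below all WT libraries in CPM. The change of Got2 was near the median of chromosome 8, -0.21, where 34.5% of the tested genes fell. The malate dehydrogenase gene Mdh2 was the one that rose (0.15 ± 0.05, edgeR adjusted p = 0.0358). Its call was lost when WT library 01 or 03 was left out, or KO 04 or 05, in DESeq2, with no low-count filter and with chromosomes 6 and 8 left out. Without WT library 01 only 4 of the list fell, and in the other 5 fits without 1 library 5 or 6 fell.

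Of 12 tested genes of mitochondrial one-carbon, proline and ornithine metabolism 4 fell, against 9.13% of all tested genes, and the median log2 fold change was -0.09. Genes of this list were called in both directions, so the falls alone do not give the list a direction. Mthfd2, the mitochondrial folate enzyme on chromosome 6, had 599 ± 5.96 CPM in the WT and 413 ± 3.21 in the KO libraries (SD, n = 3 each), a log2 fold change of -0.54 ± 0.05. On chromosome 6, 35.8% of the tested genes fell, and the median was -0.25. Aldh18a1, which makes the precursor of proline and ornithine, fell by 0.32 ± 0.05 on the log2 scale (edgeR adjusted p = 1.37e-06). Aldh1l2 rose by 0.53 ± 0.18 (edgeR adjusted p = 0.0241). Its call was lost without WT library 01 or 02 or KO library 06 and in DESeq2. Only 2 of the list fell when WT library 02 or KO library 06 was left out, in DESeq2 and with library size alone. Among 10 carnitine shuttle genes 1 rose, Cpt1c (0.38 ± 0.13, edgeR adjusted p = 0.0306), and 0 fell, against 17.3% of all tested genes called. Cpt1c lost its call when WT library 02 or 03 was left out, or KO 04 or 05, and in DESeq2 (adjusted p = 0.148), and its log2 fold change was 0.23 without KO library 04. Of 12 tested regulators of mitochondrial biogenesis Tfb2m and Yy1 rose and Myc fell, 25% against 17.3% of all tested genes. The calls of Tfb2m and Yy1 ended in 4 and 5 of the 6 fits without 1 library and in DESeq2, where 0 of the list rose.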

How the data were processed

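RNA from 6 libraries was analysed as 1 table of 49585 genes. Per the labels' protocols, 500 ng of total RNA was depleted of ribosomal RNA and sequenced in paired ends of 36 bases with a directional kit. The authors deposited whole-number read counts per gene and library, not normalized, as the values show. The p-values and FDR in the authors' deposited table are those of the authors' comparison of the genotypes (per the file headers), and its signed fold is read as a score (negative where KO is lower). The submitters' processing notes name mm10 and edgeR. No source used here names the aligner, counting program, annotation, or strand and multiple-mapping settings. Another 18 columns of per-library values were not used.

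Columns show the genotype and a library number (01 to 06), not the labels' replicate numbers. Genes passing filterByExpr (11594) were scaled with TMM and fitted with edgeR 4.0.16 (robust quasi-likelihood, group as the only term; R 4.3.3), with Benjamini-Hochberg adjustment over all tested genes and a threshold of 0.05. The SE is the size of the log2 fold change divided by the square root of F. The fit was checked on simulated counts. Alternatives were DESeq2 1.42.0, other scalings and filters, leaving out each library in turn or chromosomes 6 and 8, and, chosen after seeing the data, a fit within each of these chromosomes, an unadjusted threshold and another gene length. Coordinates are those of the table, with 1 added to its starts; gene identifiers, strands and exon lengths come from GENCODE M21, which gave 38 of the 47 members identical coordinates. Floors of 3 counts reflect counting error alone, as the reads carry no molecular identifiers. The members and lists were chosen with earlier results of these data known. Named with full values were called members, the 6 of highest level, those on chromosomes 6 and 8 and paralog pairs of at least 1 CPM; from each list, up to 4 called genes of smallest adjusted p. Of the genes on these lists, 1 is not reported here.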

Additional observations from a re-analysis of the deposited data

How the results depend on the processing

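The number of members that rose was 1 in the reported fit and 0 with no low-count filter, when 3 libraries had to reach 1 CPM, in DESeq2 and without the genes of chromosomes 6 and 8, and it ranged from 0 to 1 when 1 library was left out. The number that fell was 4, and it was 2 in DESeq2 and 2 without the genes of chromosomes 6 and 8 (where Slc25a13 and Slc25a15 have no value), 8 at an unadjusted p under 0.05 and 2 to 5 when 1 library was left out. It was lowest, at 2, without WT library 01, and the number that rose was 0 in each of these fits except that without KO library 04. Over all genes 943 rose and 1059 fell, against 569 and 693 in DESeq2. Values near 0 changed sign: Slc25a12 (0.016 without WT library 03, -0.22 without WT library 01), Slc25a23 (0.11, 0.13 and 0.022 without WT library 03 and KO libraries 04 and 05 in turn, -0.24 without 06), Slc25a4 (0.092 within chromosome 8) and Slc25a42 (0.24 without WT library 01, 0.033 without KO library 04, 0.070 within chromosome 8, -0.36 without WT library 02). Slc25a40 was -0.0013 with RLE size factors, -0.0028 with no low-count filter, -0.0015 with the CPM filter, -0.0032 in DESeq2, -0.022 without the genes of chromosomes 6 and 8, and -0.12, -0.0042 and -0.14 without WT library 03 and KO libraries 04 and 05 in turn, up to 0.13 without another library. Other than by the construction of a setting (fewer libraries or genes), the cause was not tested. Slc25a13 and Slc25a15 stayed called in all 13 alternatives that were run or apply to them, with log2 fold changes of -0.72 to -0.41 and -0.79 to -0.53. No paired analysis was possible because the count columns carry no replicate number of the labels. Depth left 11 members with counts untested.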
